A study of Mus musculus with 24 samples.

Results

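The genes followed here are 10 genes of antioxidant defence, several of them known targets of the transcription factor Nrf2: Nqo1, Hmox1, Gclc, Gclm, Txnrd1, Srxn1, Cat, Sod1, Sod2 and Gpx3. They were chosen by gene symbol in the platform annotation, and all 10 were found among the 24011 named genes measured on Affymetrix arrays of mouse heart RNA. The series holds 4 groups of 6 arrays, all from wild-type C57BL/6J mice aged 8 weeks. One pair of groups had the middle cerebral artery occluded (MCAO), a rodent model of ischemic stroke, and the other pair had a sham operation. Hearts were taken 24 h or 72 h later, so the groups shared strain and age and differed in surgery and time. The labels used here give neither the length of the occlusion, nor the sex, nor the part of the heart sampled. All values are log2 expression values as deposited, so that a difference of 1 is a doubling, and fold changes are taken from these log2 differences.

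Nrf2 is held in the cytoplasm by Keap1, which directs it to the proteasome. When oxidants or electrophiles modify Keap1, Nrf2 enters the nucleus, pairs with a small Maf protein and binds antioxidant response elements near genes for glutathione synthesis, thioredoxin recycling, quinone reduction and heme breakdown. Superoxide dismutases, catalase and glutathione peroxidases remove superoxide and peroxides directly, and the heart, rich in mitochondria, depends on them.

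The arrays carried heart RNA: the mean of 7 cardiomyocyte markers was 12.59 to 12.74 in the 4 groups, whereas the means of neutrophil and adipocyte marker lists were 3.65 to 3.86. For comparison, 95% of 1370 olfactory and vomeronasal receptor genes had means up to 3.96. Every member lay above that level in every array, the lowest value being Hmox1 at 4.43 in MCAO 24 h replicate 6. MCAO 24 h was the least uniform group: its arrays correlated with the rest of their group at r of 0.971 to 0.991 across genes, against 0.985 to 0.997 in the other groups. Of the marker lists, 3 of 7 cardiomyocyte and 2 of 6 fibroblast markers fell at 24 h, 1 fibroblast marker fell at 72 h, and endothelial markers moved both ways. At 24 h 1 of 6 neutrophil markers was called, Retnlg, up by 0.64 (limma adjusted p = 0.000926), and 2 of the 6 differed downward. Of 5 adipocyte markers 1 was called, Cidec, up by 0.39 (0.0380), and 2 differed downward. Of 4 erythroid markers Hbb-bs rose by 0.41 (0.0479) and Slc4a1 fell by 0.22 (0.0346). Their part in the results was not tested.

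After stroke the 10 genes did not move in one direction. At 24 h Gclm, Cat and Gpx3 rose and Srxn1 and Sod2 fell. At 72 h Nqo1, Cat and Gpx3 rose and Sod2 fell. Hmox1, Gclc, Txnrd1 and Sod1 passed the test at neither time. Calls were made with limma at a Benjamini-Hochberg adjusted p under 0.05 over all 24011 genes. At 24 h 5 of 10 members were called, 3 up and 2 down, where 21.8% of all genes were called (11.1% up and 10.8% down). At 72 h 4 of 10 were called, 3 up and 1 down, where 2.35% of all genes were called (1.17% up and 1.19% down). The median log2 change of the members was 0.12 at 24 h and 0.25 at 72 h, beside 0.0082 and 0.0015 over all genes. The sign was the same at both times for 9 members, and Cat, Sod2 and Gpx3 were called at both. MCAO and sham arrays did not overlap for 2 members at 72 h, Nqo1 upward and Sod2 downward, as for 3.54% of all genes (1.77% in each direction), and overlapped for all 10 at 24 h, where 5.53% of all genes separated (2.88% up, 2.65% down).

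The 24 h calls depended on the fit. With the 12 arrays of 24 h alone, 3 members passed (Gclm, Cat and Gpx3) and 2194 of all genes did, in place of 5237. The main fit gave each gene 1 spread for both times, whereas the median residual SD over genes was 0.192 at 24 h and 0.116 at 72 h. The part of this unequal spread in the counts was not tested. When the main axis of variation among the receptor genes was entered as a covariate, 0 members and 319 of all genes passed at 24 h, while the same 4 members passed at 72 h. The 24 h log2 changes of the called members were then 0.76 for Gpx3 and -0.33 for Sod2, no smaller than without the covariate, 0.55 for Gclm, 0.25 for Cat and -0.011 for Srxn1, with larger standard errors for all 5. That axis ran from -8.04 to -0.41 in the MCAO 24 h arrays and from 0.60 to 3.42 in all other arrays, so it and the MCAO 24 h group cannot be told apart. At 72 h the count over all genes, 565, depended on the fit too. It rose to 1410 (members: 4) when the 72 h arrays were fitted alone, to 1905 (members: 5) when arrays were weighted, and to 1103 (members: 4) when MCAO 24 h replicates 5 and 6 were omitted. It dropped to 296 (members: 3) when replicate 2 of both 72 h groups was omitted and to 335 (members: 2) when the 3 arrays highest in atrial markers were. With genes of a mean under the median of all genes left out, all 10 members stayed in. Then 3439 genes (members: 4) passed at 24 h and 705 (members: 4) at 72 h. As fewer genes were tested, these are larger shares of all genes than in the main fit.

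**Figure D1:**
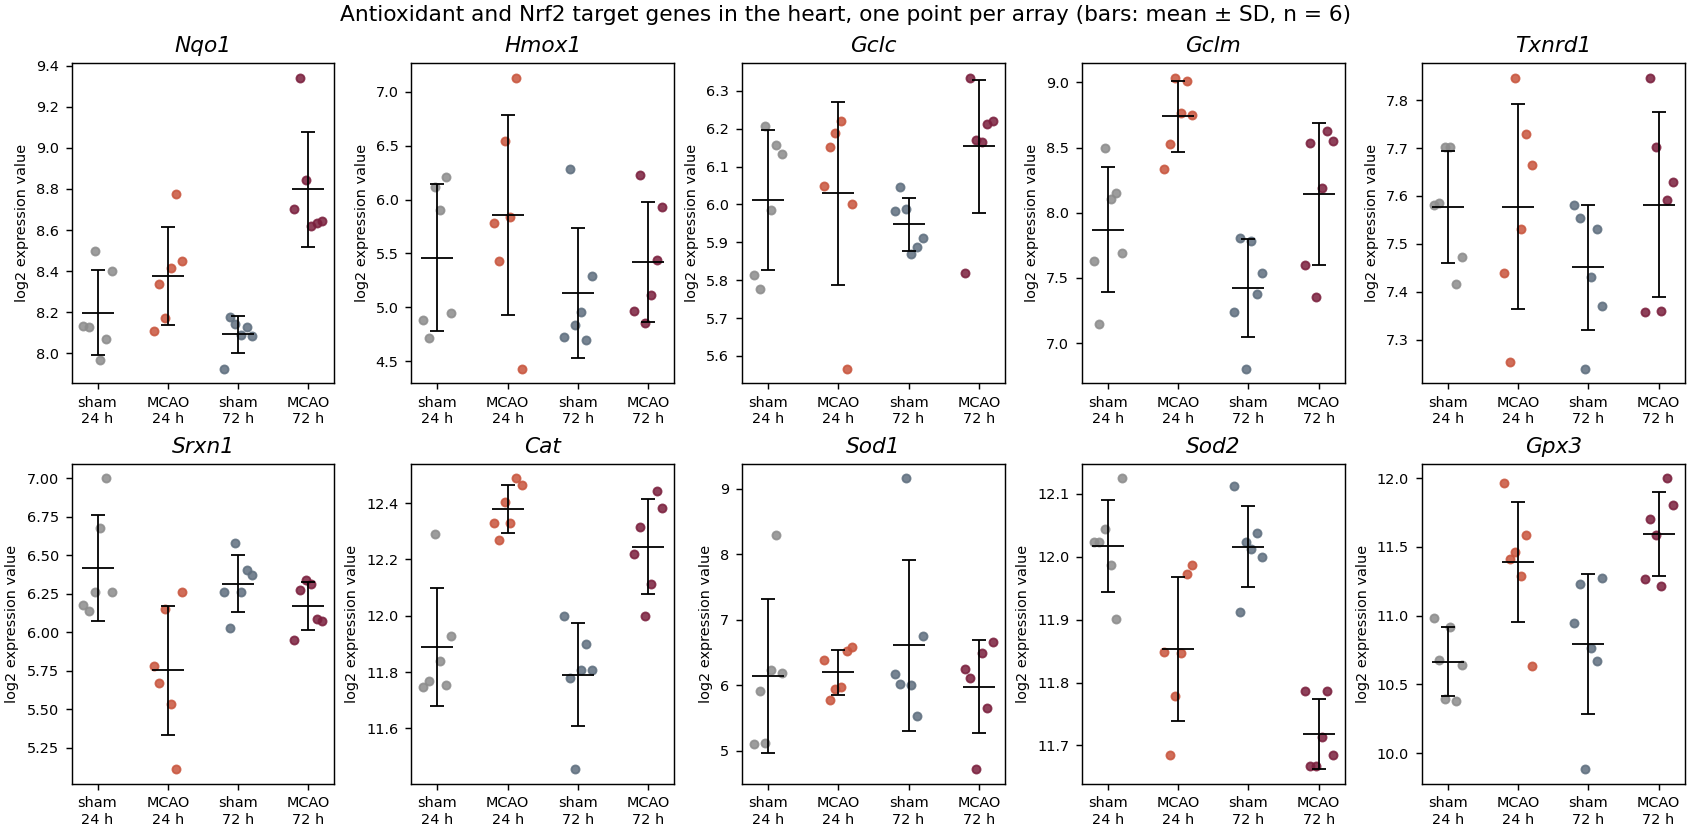
Each panel shows 1 gene, with the log2 expression value of every array on the vertical axis (each panel has its own scale), the 4 groups on the horizontal axis, and the mean ± SD (n = 6). Nqo1 and Sod2 at 72 h are the cases in which MCAO and sham arrays do not overlap, and Sod1 has a single high array in each sham group.

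The start regions of 3 members are shown because Gclm and Srxn1 were called in opposite directions at 24 h and Nqo1 separated the groups at 72 h. RefSeq promoter windows (GRCm38.p6, 250 bases before a transcription start to 50 after it) were found for 8 of the 10 members, in 10 windows, of which Txnrd1 has 3. Hmox1 and Gclc had no window. Capitals mark matches, on either strand, to the core of the antioxidant response element, TGACNNNGC, or to the AP-1 motif, TGANTCA, and the motifs can overlap each other.
Gclm, chr3:122245307-122245606, plus strand: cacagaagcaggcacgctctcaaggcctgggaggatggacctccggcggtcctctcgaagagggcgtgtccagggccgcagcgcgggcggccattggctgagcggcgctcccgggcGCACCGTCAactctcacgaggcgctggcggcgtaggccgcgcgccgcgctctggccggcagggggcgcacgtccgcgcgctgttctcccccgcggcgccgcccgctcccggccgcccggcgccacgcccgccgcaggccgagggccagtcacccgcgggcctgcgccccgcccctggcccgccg
Srxn1, chr2:152105274-152105573, plus strand: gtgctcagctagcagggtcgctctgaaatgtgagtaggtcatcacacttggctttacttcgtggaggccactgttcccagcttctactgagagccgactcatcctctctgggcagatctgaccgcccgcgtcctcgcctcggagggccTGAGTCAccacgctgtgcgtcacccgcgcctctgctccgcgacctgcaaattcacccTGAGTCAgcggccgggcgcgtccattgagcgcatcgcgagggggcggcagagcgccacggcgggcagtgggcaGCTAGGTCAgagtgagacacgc
Nqo1, chr8:107403156-107403455, minus strand: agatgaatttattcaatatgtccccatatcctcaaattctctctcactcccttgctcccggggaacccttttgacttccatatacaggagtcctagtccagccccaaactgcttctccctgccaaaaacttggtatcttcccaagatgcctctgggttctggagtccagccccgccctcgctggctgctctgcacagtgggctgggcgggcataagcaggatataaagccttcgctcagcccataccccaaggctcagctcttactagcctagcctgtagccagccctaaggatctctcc
Gclm held 1 match to the response element core, which begins at position -134, counted from the start. Srxn1 held 1 such match at position 29 and 2 AP-1 matches at positions -102 and -45. The match at -45 is followed by GC, so on the strand shown it differs from the response element core as searched by 1 base, G in place of C. Read on the other strand, each of the 2 AP-1 matches with its neighbouring bases also differs from the core by 1 base, the last, G in place of C. Nqo1 held no match in this window. Sequence outside the windows was not searched, so a window without a match does not show that a gene lacks the element. Of the other members, Sod1 and 1 Txnrd1 window held a response element core, and Cat, Sod2 and Gpx3 held no match. Of all 32851 windows of this length, 12.4% held the response element core and 7.81% the AP-1 motif. The core was thus present in the windows of a gene called up and of a gene called down at 24 h.

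Glutathione synthesis begins with glutamate-cysteine ligase, made of a catalytic subunit (Gclc) and a modifier subunit (Gclm) that raises its efficiency. Gclm (Entrez Gene 14630) had lowest, median and highest values of 7.14, 7.90 and 8.49 in sham hearts and 8.34, 8.76 and 9.04 in MCAO hearts at 24 h. Of the MCAO arrays 5 of 6 lay above every sham array, and replicate 1 lay under the highest of them. Gclm rose 1.83-fold (log2 change 0.87, SE 0.23, adjusted p = 0.0101). At 72 h the values were 6.80, 7.46 and 7.80 in sham and 7.35, 8.36 and 8.63 in MCAO hearts. MCAO replicates 1 and 3, at 7.60 and 7.35, lay within the sham range and the other 4 above it. The 72 h difference of 0.72 (SE 0.23) did not pass (limma adjusted p = 0.123). It did without MCAO 72 h replicate 3 (0.88, adjusted p = 0.0372) and with array weights (0.70, adjusted p = 0.0387).

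Gclc (Entrez Gene 14629) had group means of 5.95 to 6.15. Its difference was 0.017 at 24 h (95% interval -0.19 to 0.22, adjusted p = 0.926) and 0.21 at 72 h (95% interval -0.0013 to 0.41, adjusted p = 0.464). At 72 h 5 of 6 MCAO arrays lay above every sham array, and replicate 1, at 5.82, below every one.

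Nqo1 (Entrez Gene 18104) encodes a quinone reductase widely used as a readout of Nrf2 activity. At 72 h its lowest, median and highest values were 7.93, 8.11 and 8.18 in sham and 8.62, 8.67 and 9.34 in MCAO hearts. All 6 MCAO arrays lay above all 6 sham arrays, and replicate 2 lay well above the next MCAO array, at 8.84. Nqo1 rose 1.63-fold (log2 change 0.71, SE 0.12, adjusted p = 0.00115), and the log2 change was 0.60 to 0.74 and still called when any single array was left out. At 24 h the ranges of 7.97 to 8.50 in sham and 8.11 to 8.77 in MCAO hearts overlapped, and the difference of 0.18 did not pass (95% interval -0.067 to 0.42, adjusted p = 0.300).

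The MCAO effect on Nqo1 was larger at 72 h than at 24 h by 0.53 (SE 0.17), which did not pass (adjusted p = 0.0983). None of the 10 members passed this limma test of the difference between times. Of all genes 1.79% did (0.991% more positive at 72 h and 0.8% more negative). Nqo1 and Srxn1 had an unadjusted limma p under 0.05. The share of all genes at that level was not counted, so no excess can be read from it. The Nqo1 difference passed without MCAO 24 h replicate 5 (0.61, adjusted p = 0.0454), which has the highest Nqo1 value of its group, and without replicates 5 and 6 (0.65, adjusted p = 0.0288). The mean of the 7 cardiomyocyte markers was 12.68 to 12.81 in sham and 12.50 to 12.67 in MCAO hearts at 72 h, with 0 of 7 called by limma. Its part in the Nqo1 result was not tested. In RNA from heart tissue, fewer cells of a type and less RNA per cell cannot be told apart.

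Hmox1 (Entrez Gene 15368) encodes heme oxygenase 1, which degrades heme and is strongly inducible in macrophages. Its spread within groups was larger than the differences between them. Sham hearts ranged over 4.72 to 6.21 at 24 h and 4.70 to 6.29 at 72 h, and MCAO hearts over 4.43 to 7.13 and 4.86 to 6.23. The differences of 0.40 at 24 h (95% interval -0.39 to 1.18, adjusted p = 0.486) and 0.29 at 72 h (95% interval -0.49 to 1.07, adjusted p = 0.986) did not pass. All 7 macrophage markers differed downward at both times, and of them only Folr2 was called, downward at both. The macrophage mean was 6.53 to 6.89 in sham and 5.95 to 6.59 in MCAO hearts at 24 h, and 6.44 to 7.33 and 6.22 to 6.65 at 72 h. The array with the highest macrophage mean had the highest Hmox1 value in sham 72 h (replicate 2, 7.33 and 6.29), but the lowest in MCAO 24 h (replicate 6, 6.59 and 4.43). After subtraction of the group means, Hmox1 and the macrophage mean had a Pearson r of 0.13 over the 24 arrays.

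Txnrd1 (Entrez Gene 50493) encodes the cytosolic thioredoxin reductase, a selenoprotein. Its group means were 7.45 to 7.58, and its differences of 0.00079 at 24 h (95% interval -0.20 to 0.20, adjusted p = 0.997) and 0.13 at 72 h (95% interval -0.067 to 0.33, adjusted p = 0.802) did not pass. Srxn1 (Entrez Gene 76650) encodes sulfiredoxin, which restores over-oxidized peroxiredoxins. At 24 h its lowest, median and highest values were 6.14, 6.26 and 7.0 in sham and 5.11, 5.73 and 6.26 in MCAO hearts. In 4 of 6 MCAO arrays Srxn1 lay below every sham array, and replicates 3 and 6 lay within the sham range. Srxn1 fell 1.59-fold (log2 change -0.67, SE 0.16, adjusted p = 0.00543). The call was lost with the 24 h arrays alone (SE 0.20, adjusted p = 0.0522), and with the receptor axis as a covariate the change was -0.011 (SE 0.25). The residual SD of Srxn1 was 0.38 at 24 h and 0.17 at 72 h. At 72 h the ranges of 6.03 to 6.58 in sham and 5.95 to 6.34 in MCAO hearts overlapped, and the difference of -0.14 did not pass (95% interval -0.48 to 0.19, adjusted p = 0.958). The difference between the effects at the 2 times was 0.52 (SE 0.23, adjusted p = 0.232).

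Superoxide dismutases turn superoxide into hydrogen peroxide, Sod1 mainly in the cytosol and Sod2 in the mitochondrial matrix. Sod2 (Entrez Gene 20656) had the smallest standard error of the members. At 72 h its lowest, median and highest values were 11.91, 12.02 and 12.11 in sham and 11.67, 11.70 and 11.79 in MCAO hearts. All 6 MCAO arrays lay below all 6 sham arrays. Sod2 fell 1.23-fold (log2 change -0.30, SE 0.053, adjusted p = 0.00195) and was called in every alternative fit run, at -0.32 to -0.28. At 24 h the sham range was 11.90 to 12.12 and the MCAO range 11.69 to 11.99, with 4 of 6 MCAO arrays below every sham array. The change of -0.16 (SE 0.053) passed by limma (adjusted p = 0.0296). That call was lost without MCAO replicate 2 or 3 or sham replicate 3 or 6 of 24 h (adjusted p = 0.0521 to 0.0722), and in 6 of 14 other settings. These were the 24 h arrays alone (adjusted p = 0.152), a trended and robust prior (0.0524), dim genes left out (0.0718), the 3 arrays highest in atrial markers left out (0.0517), and the atrial (0.0764) or receptor (0.0622) covariate. The difference between the effects at the 2 times was -0.13 (SE 0.075, adjusted p = 0.362).

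Sod1 (Entrez Gene 20655) had the largest standard error, and no MCAO effect was detectable. Its lowest, median and highest values were 5.10, 6.05 and 8.29 in sham and 5.78, 6.17 and 6.59 in MCAO hearts at 24 h. At 72 h they were 5.53, 6.09 and 9.16 and 4.72, 6.18 and 6.66. Each sham maximum came from a single array, sham 24 h replicate 5 and sham 72 h replicate 3, with the next arrays at 6.23 and 6.76. These arrays also had the lowest correlation with the rest of their groups. The differences of 0.057 at 24 h (95% interval -1.01 to 1.12, adjusted p = 0.955) and -0.63 at 72 h (95% interval -1.69 to 0.44, adjusted p = 0.864) did not pass. Leaving out single arrays moved the 72 h value between -0.84 and -0.12.

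Cat (Entrez Gene 12359) encodes catalase, the peroxisomal enzyme that splits hydrogen peroxide, and it rose at both times. At 24 h its lowest, median and highest values were 11.75, 11.80 and 12.29 in sham and 12.27, 12.37 and 12.49 in MCAO hearts. The groups overlapped only through sham replicate 3, the next sham array lying at 11.93. The rise was 1.41-fold (log2 change 0.49, SE 0.095, adjusted p = 0.000890). At 72 h the values were 11.46, 11.81 and 12 in sham and 12, 12.27 and 12.44 in MCAO hearts, with 5 of 6 MCAO arrays above every sham array. The rise was 1.37-fold (log2 change 0.45, SE 0.095, adjusted p = 0.00783). The effects at the 2 times differed by -0.037 (95% interval -0.32 to 0.24, adjusted p = 0.916). The 72 h call held without any single array, but not without the 3 arrays highest in atrial markers (0.42, adjusted p = 0.0588).

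Gpx3 (Entrez Gene 14778) encodes the secreted glutathione peroxidase of plasma, a selenoprotein. At 24 h its lowest, median and highest values were 10.38, 10.66 and 10.98 in sham and 10.63, 11.44 and 11.97 in MCAO hearts. Of the MCAO arrays 5 of 6 lay above every sham array, and replicate 6 lay within the sham range. The rise was 1.65-fold (log2 change 0.73, SE 0.21, adjusted p = 0.0167). At 72 h the values were 9.88, 10.85 and 11.28 in sham and 11.22, 11.64 and 12 in MCAO hearts, with 4 of 6 MCAO arrays above every sham array. The rise was 1.74-fold (log2 change 0.80, SE 0.21, adjusted p = 0.0407). This call was lost when any 1 of 10 arrays was left out: MCAO 72 h replicates 2, 3, 5 and 6, sham 72 h replicates 1, 3, 4 and 5, and sham 24 h replicates 2 and 6 (adjusted p up to 0.121).

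Gpx3 was set beside 6 atrial muscle markers (Nppa, Myl7, Myl4, Sln, Bmp10 and Dkk3). The highest Gpx3 values of MCAO 24 h (replicate 1, 11.97), sham 72 h (replicate 6, 11.28) and MCAO 72 h (replicate 5, 12) came from the arrays with the highest atrial mean of those groups, 9.0, 8.34 and 8.93. In sham 24 h they did not coincide: the highest Gpx3 value (replicate 1, 10.98) had an atrial mean of 5.85, and the highest atrial mean (replicate 2, 6.46) a Gpx3 value of 10.67. The atrial mean was 5.17 to 6.46 in sham and 5.64 to 9.0 in MCAO hearts at 24 h, and 5.44 to 8.34 and 5.50 to 8.93 at 72 h. Its group averages were 5.76 and 6.85 at 24 h and 6.52 and 6.63 at 72 h. Limma called 0 of the 6 markers at either time. All 6 differed upward at 24 h (median log2 change 0.56), and 4 upward and 2 downward at 72 h (median 0.12). After subtraction of the group means, Gpx3 and the atrial mean had a Pearson r of 0.72 over the 24 arrays. With the atrial mean as a covariate the Gpx3 change was 0.43 at 24 h (SE 0.16, adjusted p = 0.0671) and 0.77 at 72 h (SE 0.15, adjusted p = 0.00512). The 24 h call was thus lost with the covariate and the 72 h call kept.

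**Figure D2:**
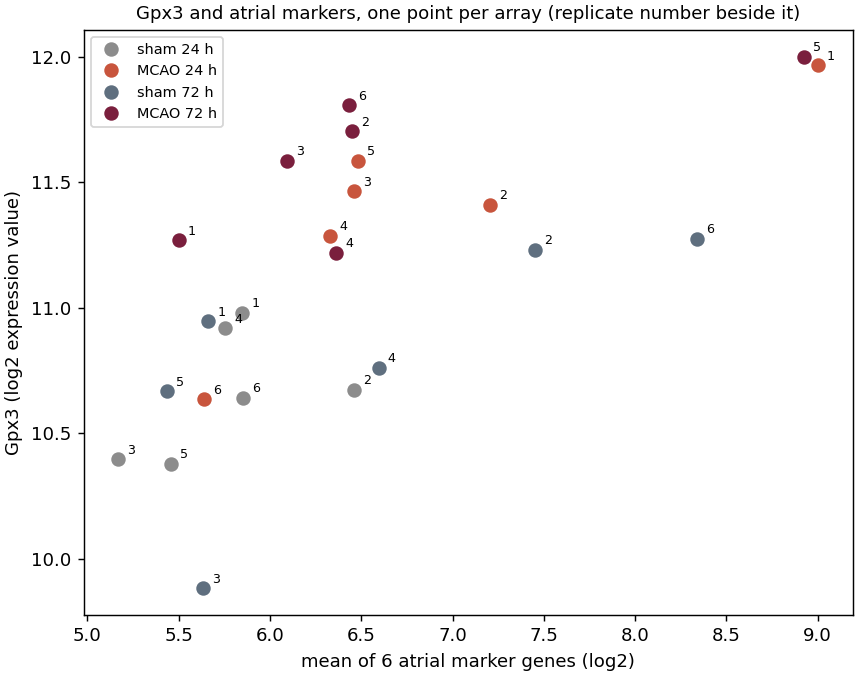
Every point is 1 array, with the mean log2 value of the 6 atrial markers on the horizontal axis, the log2 value of Gpx3 on the vertical axis and the replicate number beside it. MCAO 24 h replicate 1 and MCAO 72 h replicate 5 are highest on both axes; the other 5 MCAO 72 h arrays, at atrial means of 5.50 to 6.45, lie at 11.22 or above in Gpx3.

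**Figure D3:**
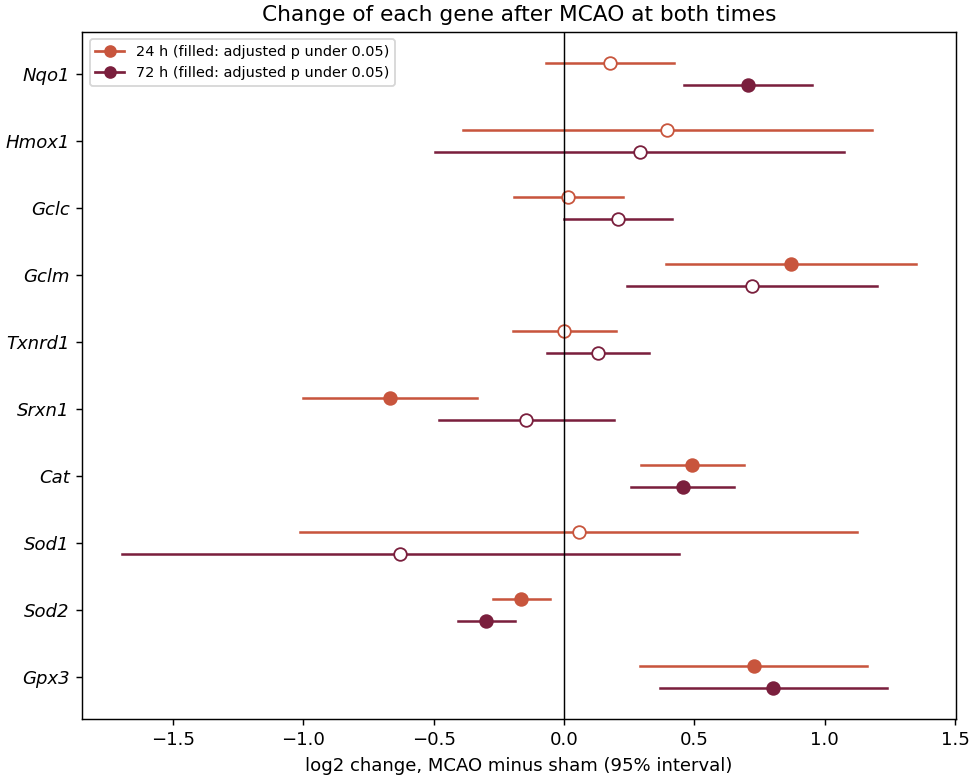
Log2 change of each gene, MCAO minus sham, on the horizontal axis at 24 h and 72 h with its 95% interval; filled points passed at an adjusted p under 0.05. Sod1 and Hmox1 have the widest intervals and Sod2 the narrowest.

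Between the sham groups 0 of 10 members were called by limma, 72 h against 24 h. At an unadjusted limma p under 0.05 there were also 0, and the share of all genes at that level was not counted. Over all genes 0.0208% were called (0.00833% up, 0.0125% down). The members' log2 differences ran from -0.45 for Gclm to 0.47 for Sod1.

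Among 14 genes that form or control Nrf2 and its partners, 2 rose and 1 fell at 24 h and 0 were called at 72 h. Nfe2l2, which encodes Nrf2, had lowest, median and highest values of 8.36, 8.68 and 9.13 in sham and 9.02, 9.20 and 9.26 in MCAO hearts at 24 h. It rose by 0.48 (SE 0.096, adjusted p = 0.00118). At 72 h its ranges of 8.50 to 8.95 and 8.97 to 9.26 did not overlap, but the difference of 0.30 did not pass (adjusted p = 0.112). Mafk, a small Maf partner of Nrf2, rose by 0.63 at 24 h (SE 0.15, adjusted p = 0.00521), and its 72 h difference of 0.55 did not pass (adjusted p = 0.0569). Nfe2l3, a relative of Nrf2, fell by 0.34 at 24 h (SE 0.084, adjusted p = 0.00651). Keap1 differed by -0.0048 and 0.082 and Bach1, a repressor at the same elements, by -0.051 and 0.11, and neither passed.

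Of 19 other Nrf2 target genes 6 rose and 2 fell at 24 h and 3 rose at 72 h (median log2 change 0.15 and 0.048). Mgst1, a microsomal glutathione transferase, had medians of 7.91 in sham and 9.21 in MCAO hearts at 24 h and 7.73 and 8.60 at 72 h, with no overlap at either time. It rose by 1.35 (SE 0.16, adjusted p = 5.84e-06) and 0.88 (SE 0.16, adjusted p = 0.00198). Aox1, an aldehyde oxidase, rose by 0.70 (SE 0.16, adjusted p = 0.00420) and 0.74 (SE 0.16, adjusted p = 0.0120). The glutathione transferase gene Gsta3 rose by 0.60 (SE 0.10, adjusted p = 0.000351) and 0.52 (SE 0.10, adjusted p = 0.00524), at group means of 3.93 to 4.62, close to the receptor genes. Gstm3, of the same enzyme class and dimmer (group means 3.35 in MCAO 24 h and up to 4.11 elsewhere, the former under the 3.96 level of the receptor genes), fell by 0.76 at 24 h (SE 0.11, adjusted p = 7.48e-05) and differed by -0.0064 at 72 h, where it did not pass. The effects on Gstm3 at the 2 times differed by 0.76 (SE 0.16, adjusted p = 0.0203). Slc7a11, the cystine transporter gene, differed by -0.012 and 0.056 and did not pass.

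Of 17 other glutathione genes 2 rose and 4 fell at 24 h and 1 rose at 72 h. Oplah, whose product returns 5-oxoproline to glutamate, rose by 0.54 (SE 0.15, adjusted p = 0.0136) and 0.56 (SE 0.15, adjusted p = 0.0467), and the 72 h call was lost when any 1 of 15 arrays was left out (adjusted p up to 0.137). The 24 h call of Oplah was lost with array weights (0.37, adjusted p = 0.0922), with the 24 h arrays alone (adjusted p = 0.0847) and without MCAO 24 h replicates 5 and 6 (0.32, adjusted p = 0.0572). The glutaredoxin gene Glrx fell by 0.73 at 24 h (SE 0.15, adjusted p = 0.00120), the peroxidase gene Gpx8 by 0.44 (SE 0.11, adjusted p = 0.00613) and Ggct by 0.29 (SE 0.078, adjusted p = 0.00994). Of 16 thioredoxin and peroxiredoxin genes 2 rose and 2 fell at 24 h and 1 fell at 72 h. Txnip, which encodes an inhibitor of thioredoxin, rose by 0.86 at 24 h (SE 0.21, adjusted p = 0.00650), and its 72 h difference of 0.78 did not pass (adjusted p = 0.0552). The 24 h call of Txnip was lost with array weights (0.66, adjusted p = 0.134). The methionine sulfoxide reductase genes Msra and Msrb3 fell by 0.37 and 0.52 at 24 h, and Msrb2 fell by 0.43 at 72 h (SE 0.097, adjusted p = 0.0137).

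Of 13 genes for superoxide sources and other dismutase genes 1 rose and 3 fell at 24 h and 1 rose at 72 h. Xdh, whose product xanthine oxidoreductase can form superoxide, had medians of 8.05 in sham and 9.29 in MCAO hearts at 24 h and 8.57 and 9.40 at 72 h, with no overlap at either time. It rose by 1.25 (SE 0.16, adjusted p = 1.11e-05) and 0.84 (SE 0.16, adjusted p = 0.00271). Rac2 and Cybb, genes of the phagocyte NADPH oxidase, fell by 0.96 (SE 0.17, adjusted p = 0.000513) and 0.89 (SE 0.26, adjusted p = 0.0186) at 24 h. The Cybb call was lost with array weights (-0.72, adjusted p = 0.0854). It was also lost without MCAO 24 h replicates 5 and 6 (-0.55, adjusted p = 0.125). Cyba, Ncf1 and Ncf4, genes of the same oxidase, differed by -0.047, 0.24 and -0.17 at 24 h and did not pass. Duox2, whose group means of 3.58 to 3.85 all lie under that receptor level of 3.96, fell by 0.25 (SE 0.079, adjusted p = 0.0279), a call lost without any 1 of 5 arrays (adjusted p up to 0.0789). Of 12 NADPH supply genes Tkt, the transketolase of the pentose phosphate pathway, fell by 0.61 at 24 h (SE 0.18, adjusted p = 0.0164), and 0 were called at 72 h.

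Of 16 heme and iron genes 2 rose and 1 fell at 24 h and 0 were called at 72 h. The iron exporter gene Slc40a1 rose by 1.08 (SE 0.23, adjusted p = 0.00192), and Cd163, a hemoglobin scavenger receptor of macrophages, by 0.66 (SE 0.14, adjusted p = 0.00193). The transferrin receptor gene Tfrc fell by 1.47 (SE 0.42, adjusted p = 0.0156), with ranges of 4.39 to 7.94 in sham and 4.29 to 5.16 in MCAO hearts that overlapped. Of 14 selenoprotein and selenium genes Sepsecs rose by 0.44 and Pstk and Selenot fell by 0.71 and 0.40 at 24 h; the Selenot call was lost without any 1 of 4 arrays. At 72 h Selenow rose by 0.39 (SE 0.100, adjusted p = 0.0333), a call lost without any 1 of 8 arrays. Of 11 peroxisome genes other than Cat, Pex5 and Pex11a rose by 0.51 and 0.56 at 24 h, and Amacr fell by 0.34 at 72 h (SE 0.091, adjusted p = 0.0447), a call lost without any 1 of 12 arrays. The Pex11a call was lost with array weights (adjusted p = 0.137) and with the 24 h arrays alone (adjusted p = 0.0738). It was also lost without MCAO 24 h replicates 5 and 6 (adjusted p = 0.0701).

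Over these 9 lists 34 of 132 genes were called at 24 h (18 up, 16 down), 25.8% beside 21.8% of all genes, and 8 at 72 h (6 up, 2 down), 6.06% beside 2.35%. With genes of a mean under the median of all genes left out, 115 of the 132 remained. Of these 32 were called at 24 h and 11 at 72 h, beside 3439 and 705 of all genes kept. The list share then no longer exceeded that of all genes kept at 24 h, while at 72 h it still did. As the lists were chosen with earlier results of these data known, these shares are a description and not a test. With the arrays of a single time alone the counts among the 132 genes were 18 and 18, beside 2194 and 1410 of all genes. With the receptor axis as a covariate the 24 h count was 3, beside 319 of all genes. Among the named genes, the 24 h arrays alone lost the calls of Nfe2l3, Ggct, Oplah, Msra, Msrb3, Duox2, Tkt, Tfrc, Selenot and Pex11a.

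**Figure D4:**
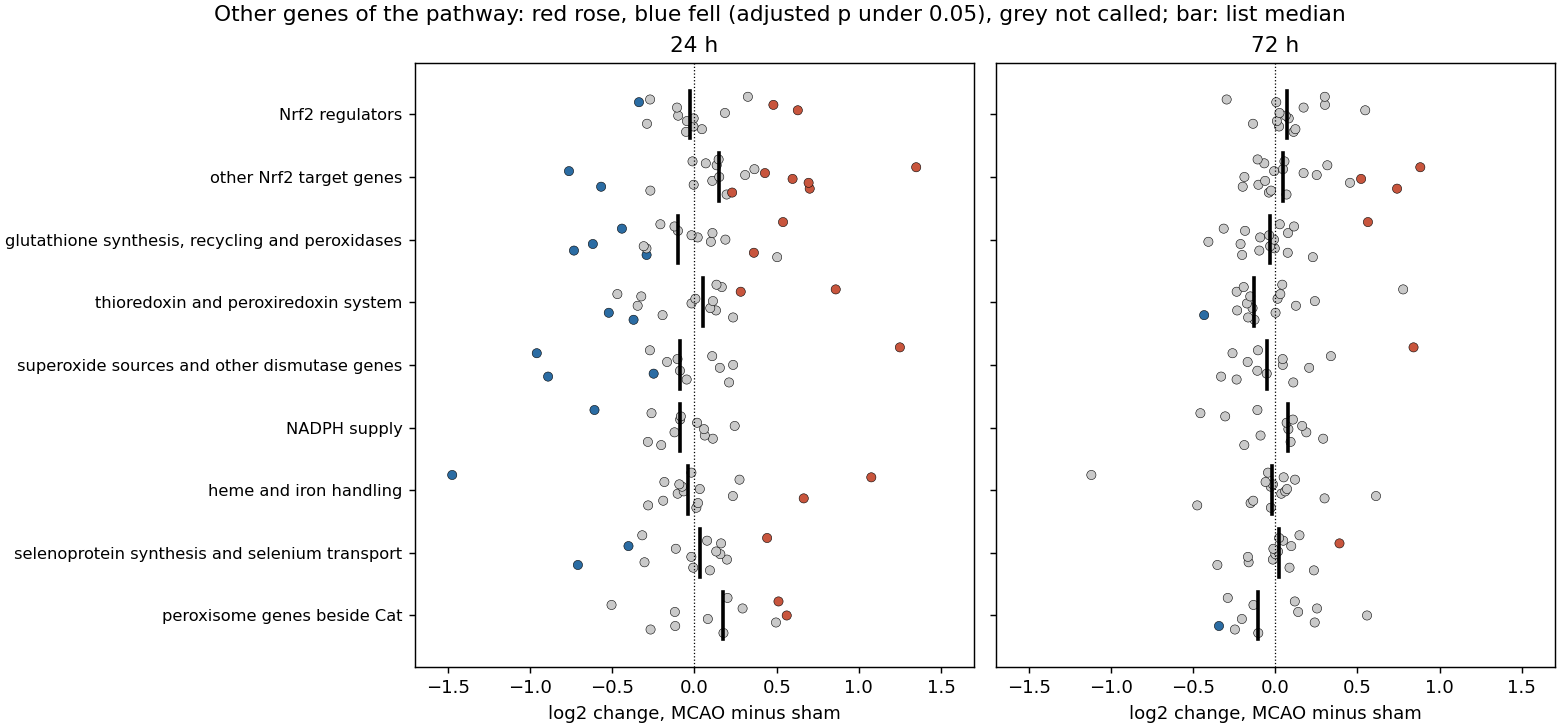
Every point is 1 gene of the list named at the left, with its log2 change (MCAO minus sham) on the horizontal axis at 24 h in the left panel and 72 h in the right; red points rose and blue points fell at an adjusted p under 0.05, grey points did not pass, and bars mark list medians. The list medians lie between -0.10 and 0.18 at 24 h, close to 0 beside single genes such as Mgst1, Xdh and Tfrc.

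Within groups the members varied together loosely. After subtraction of the group means, Pearson correlations of the 45 pairs of members over the 24 arrays ran from -0.46 (Sod1 with Gpx3) to 0.66 (Hmox1 with Gclm), with a median of 0.12. Gclm with Cat gave 0.65 and Gclc with Gclm 0.34. These values are a description, since all genes share the arrays. On the same measure the 3 genes most like Gclm were Aox1 (0.78), Arel1 (0.77) and Pdk4 (0.75), and those most like Nqo1 were Emc1 (0.73), Tubgcp2 (0.72) and Trim35 (0.72). For Cat they were Creg1 (0.86), Zscan26 (0.82) and Psmd7 (0.80), and for Gpx3 Ankrd13a (0.82), Ikbip (0.79) and Zbtb4 (0.78). Srxn1 was closest to Pop5 (0.89), Tmem74b (0.87) and Eif3f (0.86), and Sod2 to Cdc73 (0.83), Cpsf6 (0.82) and Btbd8 (0.81).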

How the data were processed

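Heart RNA was isolated with Trizol and hybridised as biotinylated cRNA to Affymetrix arrays, per the labels' protocols. Sample titles gave the groups; in the 72 h samples a description field says 24 h, and the title was used. Nothing in the labels ties each array to its own animal, so the p-values may measure technical spread. The table deposited by the authors holds log2 values from 2.78 to 13.5, the base being inferred from this range. The sorted values of 23 of 24 columns are identical, as after quantile normalization. How probes were summarized is not given in the sources used here, and the role of HOMER, listed in the submitters' processing notes, is unknown. The number of arrays limits the precision.

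Of 24973 identifiers 24015 had 1 symbol, 0 had several and 958 had none. Where a symbol had several identifiers (4 symbols) the identifier of highest mean stood for it, leaving 24011 genes. All were fitted with lmFit and eBayes of limma (3.58.1, under R 4.3.3) as 4 group means over 24 arrays, with Benjamini-Hochberg adjustment at 0.05. Standard errors and 95% intervals are moderated. The fit was also run on simulated data with independent noise and 1 spread per gene for all groups. That setting does not cover the unequal spread between the times or the receptor axis, so it does not bear on those limits. The members and lists were chosen with earlier results of these data known. All members are named, with up to 4 called genes of lowest p from each of 9 pathway lists and the 3 genes most like each called member; Keap1, Bach1, Slc7a11 and the markers named were added after their values were seen. Alternatives covered the prior, normalization, filters, identifier rule, array weights, replicate block, arrays fitted, receptor gene and atrial covariates, and arrays left out; the atrial covariate and 3 of the sets of arrays left out were added after seeing the data. Promoters are from RefSeq (GRCm38.p6).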

Additional observations from a re-analysis of the deposited data

Results flagged for a closer look

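Among 40 sets of 6 arrays (10 genes in 4 groups), 8 held a highest or lowest array whose gap to the next, over the range of the set, exceeded Dixon's 95% critical value. Chance gives this in about 1 set in 20.

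Sod1 was high in sham 24 h replicate 5 at 8.29 (next 6.23) and in sham 72 h replicate 3 at 9.16 (next 6.76). Nqo1 was high in MCAO 72 h replicate 2 at 9.34 (next 8.84) and low in sham 72 h replicate 1 at 7.93 (next 8.09). Hmox1 was high in sham 72 h replicate 2 at 6.29 (next 5.29), and Cat in sham 24 h replicate 3 at 12.29 (next 11.93). Gclc was low in MCAO 24 h replicate 5 at 5.57 (next 6.00) and in MCAO 72 h replicate 1 at 5.82 (next 6.16).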

How the results depend on the processing

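Of 44 calls of members and named pathway genes, refitted under 14 settings other than leaving out a single array (614 fits), 537 stayed, 74 fell short and 3 changed sign. In what follows the count over all genes stands in brackets after each count. The 5 members called at 24 h (5237) became 3 (2194) with the 24 h arrays alone, 3 (4619) with the atrial covariate and 0 (319) with the receptor covariate. Without single arrays they were 4 to 5 (4234 to 5867). The 4 called at 72 h (565) became 2 (335) without the 3 arrays highest in atrial markers. They were 3 to 4 (393 to 821) without single arrays. For the difference between times 0 (430) became 1 (1079) without MCAO 24 h replicates 5 and 6. The count was 0 to 1 (197 to 1012) without single arrays. Other pathway genes called at 24 h went from 34 (5237) to 18 (2194) with the 24 h arrays alone and 3 (319) with the receptor covariate. They were 31 to 39 (4234 to 5867) without single arrays. At 72 h they went from 8 (565) to 23 (1905) with array weights and 18 (1410) with the 72 h arrays alone. They were 13 (1103) without MCAO 24 h replicates 5 and 6. Without replicate 2 of both 72 h groups they were 3 (296), and without the 3 atrial arrays 5 (335). Without single arrays they were 5 to 12 (393 to 821).

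Among the members, signs changed only in values that passed in neither fit. Among the called pathway genes Tkt, Selenot and Pex5 changed sign with the receptor covariate, to 0.14, 0.13 and -0.093 at 24 h. With that covariate Nqo1 was -0.27 and Txnrd1 -0.25 at 24 h, and the differences between times were 0.24 for Hmox1, -0.17 for Gclc, 0.16 for Gclm, -0.11 for Srxn1, 0.19 for Cat and 0.025 for Sod2. With array weights Txnrd1 at 24 h was -0.031, the Gpx3 difference -0.027 and Srxn1 between shams 0.0027. Omitting MCAO 24 h replicates 5 and 6 gave -0.059 for Txnrd1 and -0.12 for Sod1 at 24 h and differences of 0.011 for Cat and -0.065 for Gpx3. Omitting the 2 sham arrays high in Sod1 gave -0.031 for Txnrd1 at 24 h and -0.049 for the Gpx3 difference. The atrial covariate gave 0.012 for the Hmox1 difference and, between shams, -0.076 for Gpx3 and 0.010 for Sod2, which was 0.020 without replicate 2 of both 72 h groups and 0.0023 without the 3 atrial arrays. Without single arrays, ranges that crossed 0 were Gclc (-0.030 to 0.11), Txnrd1 (-0.053 to 0.065) and Sod1 (-0.15 to 0.49) at 24 h, the differences of Hmox1 (-0.39 to 0.15), Gclm (-0.28 to 0.0076), Cat (-0.12 to 0.012) and Gpx3 (-0.11 to 0.19), and, between shams, Srxn1 (-0.16 to 0.012), Sod1 (-0.044 to 0.90) and Sod2 (-0.024 to 0.021). The cause was not tested.

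The labels do not say what a replicate number marks, and no pairing by number was seen between sham and MCAO arrays. Deviations of same-numbered arrays correlated at -0.0533 to 0.00678 at 24 h and -0.0695 to 0.141 at 72 h. Of the numbers 0 of 6 and 1 of 6 correlated best with themselves. A weak shared effect could be missed this way, and pairing between the times was not tested. With the replicate block 5 members were called at 24 h and 3 at 72 h, beside 4938 and 519 of all genes. Of 44 calls 41 stayed, and Gpx3 (limma adjusted p = 0.0651), Selenow (0.0687) and Amacr (0.0727) at 72 h did not. Signal over background was not analysed here, so a dim gene has no stated detection limit.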
